A study of Mus musculus with 72 samples.

Results

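The cytosolic ribosomal protein genes of the mouse heart were examined in 72 RNA-seq libraries. Members were the protein-coding genes of the count table whose symbol is Rpl or Rps followed by a number, together with Rplp0, Rplp1, Rplp2 and Rpsa, and without the Rps6k kinases and Rps19bp1. This rule gave 90 of 24237 genes, of which 53 encode proteins of the large subunit, 34 proteins of the small subunit and 3 proteins of the stalk. A further 5 symbols that fit the pattern are transcribed pseudogenes in RefSeq and were left out. The rule used no measured value.

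The study asked how disruption of the aryl hydrocarbon receptor (AHR), a ligand-activated transcription factor that binds dioxin, during heart development is reflected in adult heart gene expression. All mice were on the C57BL/6J background. Naive mice were Ahr+/+ and were born to dams given corn oil. High-dose and low-dose mice were Ahr+/+ and were born to dams gavaged with 1 or 0.1 µg/kg TCDD, the most potent dioxin, on 3 days of gestation, and are named 1000 and 100 in the labels. Ahr-/- mice carried a germline knockout and, by the study's methods, were not given TCDD, although the labels name TCDD for every sample. Hearts were taken at 9 months of age per the labels and at 10 months per the study's methods. Right atrium, left atrium and ventricle of each sex and each of the 4 treatments gave 24 groups of 3 libraries, numbered 1 to 72. By the methods each group comes from 3 mice whose hearts were cut into the chambers. The labels do not tie libraries to hearts, so no heart could be used as a block and p-values rest on the spread between these libraries. The dams were the animals dosed, and no litter could be used as a block either.

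Each ribosome holds a small subunit, which reads the mRNA, and a large subunit, which joins amino acids. The ribosomal proteins are built in near equal numbers around the ribosomal RNA, and the P stalk (Rplp0, Rplp1, Rplp2) recruits the elongation factors. Their mRNAs belong to the TOP class, which starts with a C followed by a tract of pyrimidines and whose translation is controlled by mTOR through Larp1. Several members have a paralog, of which Rpl3l is best known in the heart: it is made in striated muscle and takes the place of Rpl3 in the ribosome.

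The sequences around the annotated start are shown for members that the results turn on, since the TOP class is defined there. RefSeq windows of 300 bases (GRCm38.p6, 250 before to 50 after the start) were found for 69 members. The lines give 30 bases on the strand of the gene, with the 15 bases from the annotated start in capitals, for a set of members that rose (Rps2, Rpl27a, Rplp2), a pair that fell (Rps27, Rps27l) and the muscle paralog Rpl3l.
Rps2: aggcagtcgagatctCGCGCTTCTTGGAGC
Rpl27a: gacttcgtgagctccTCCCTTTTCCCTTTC
Rplp2: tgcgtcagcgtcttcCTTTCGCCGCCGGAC
Rps27: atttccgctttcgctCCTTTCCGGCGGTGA
Rps27l: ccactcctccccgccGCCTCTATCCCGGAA
Rpl3l: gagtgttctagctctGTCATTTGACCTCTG

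These lie at chr17:24720048-24720077 for Rps2, chr7:109519180-109519209 for Rpl27a, chr7:141447636-141447665 for Rplp2, chr3:90213634-90213663 (minus strand) for Rps27, chr9:66946071-66946100 for Rps27l and chr17:24727811-24727840 for Rpl3l, with 1 of the 2 starts listed shown for each of Rps27l and Rpl3l. The annotated start lies within an unbroken run of C and T of at least 19 bases in Rpl27a, which reaches the end of the line shown. The run is of 10 bases in Rplp2, 9 in Rps27 and 4 in Rps2, while Rps27l and Rpl3l start with G, as do Rpl4 and Rpl41, which also rose. CTTTCC or CTTTTC on the gene's strand within 20 bases of the start was found in 16 of 69 members. Counted over windows, of which some genes have several, it was in 19.8% of 81 member windows and 3.32% of all 32851 windows. The ETS-type motif CGGAAG, on either strand of the whole window, was in 56.8% of member windows and 16.9% of all, and the GC box GGGCGG in 56.8% and 35.7%. AAGATGGC, the core of the YY1 motif, was in 9.88% of member windows and 2.75% of all, also on either strand. The motifs searched share no whole match with each other. These shares are descriptions of these windows and say nothing of binding.

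Total counts ran from 11873417 to 28789382 per library, with a median of 19231739. Ahr itself was at 2.29 to 8.65 CPM (counts scaled to a common library size with TMM factors) in the 18 Ahr-/- libraries and at 10.5 to 34.4 CPM in the 18 naive libraries. It was at 5.04 to 19 CPM in high-dose and 6.58 to 18.4 CPM in low-dose libraries, which overlapped both. The atrial light chain Myl4 went against the label in 13 libraries: it was below 100 CPM in 8 libraries labelled atrium (4, 11, 23, 24, 51, 57, 63 and 69) and above 500 CPM in 5 labelled ventricle (46, 53, 59, 65 and 71, all male). Xist and 4 Y-linked genes went against the labelled sex in 8 libraries, namely 50, 56, 62 and 68 of female right atrium and 53, 59, 65 and 71 of male ventricle. Several results that rest on these libraries are given with and without them. The member shares, the spread within groups and the comparison by library number are given only with them. The labels call the cells cardiomyocytes, but summed markers of fibroblasts (890.2 to 2842 CPM) and endothelium (337 to 822 CPM) were present in all 72 libraries. Over the 72 libraries the other summed marker lists ran from 32.3 to 25400 CPM for atrial muscle, 2630 to 38250 for ventricular muscle, 477 to 37580 for blood, 25.9 to 200.6 for leukocytes, 1.45 to 396 for T cells, 0.139 to 52.9 for B cells, 79.8 to 2842 for adipocytes, 0 to 1760 for lung and 195 to 3888 for skeletal muscle. In bulk tissue, fewer cells of a type and less RNA per cell cannot be told apart.

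The members together took between 0.91% and 2.48% of a library's counts. The smallest share was in library 60 (Ahr-/- female ventricle) and the largest in library 47 (low-dose female ventricle). The shares were 0.991% to 2.16% in right atrium, 1.02% to 2.22% in left atrium and 0.91% to 2.48% in ventricle, so the chambers overlapped throughout. The library numbers stood apart more clearly. The 48 libraries numbered 1 to 48 had a median share of 1.63% and the 24 numbered 49 to 72 a median of 1.22%. Each group holds 1 library of the second set, and in 19 of 24 groups that library had the lowest member share of its group.

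**Figure D1:**
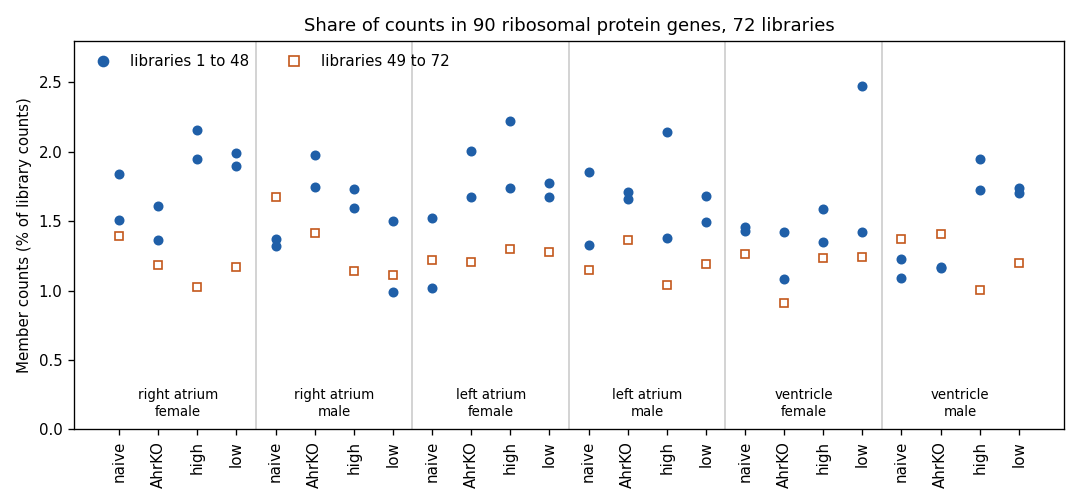
Share of library counts (%, y axis) in the 90 members for each of the 72 libraries, by chamber, sex and treatment (x axis), with filled circles for libraries 1 to 48 and open squares for libraries 49 to 72. The squares have a median of 1.22% and the circles a median of 1.63%, and in 19 of 24 groups the square is lowest.

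Levels between members were compared as CPM per 1000 bases of the longest annotated coding sequence, which 86 members have. The median member stood at 275.0 CPM per 1000 bases, above 96.8% of the genes with a median above 0 CPM, whose own median was 9.61. The highest levels were those of Rpl41, the smallest ribosomal protein, at a median of 1641 over 72 libraries, and of Rps29, a zinc-binding protein of the small subunit head, at 1534. Rps2, which lines the mRNA entry channel, followed at 1240 and Rpl39, which lines the exit tunnel, at 1027. The stalk was at 506 for Rplp0, 726 for Rplp1 and 474 for Rplp2. Rps27a, made as a fusion with ubiquitin, was at 687, Rpsa, also known as the laminin receptor, at 170.1, and Rps4x, the X-linked form of a small subunit protein, at 320.3. At the other end, Rpl10l and Rpl39l, paralogs known from testis, had medians of 0 and 0.28 and reached at most 0.317 and 0.878 CPM in any library.

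Paralogs of ribosomal proteins were the lower member of each pair at the median over 72 libraries. Rpl22l1 stood at 152.5 CPM per 1000 bases against 352.5 for Rpl22, Rpl36al at 77.9 against 283.8 for Rpl36a, Rpl7l1 at 47.1 against 245.3 for Rpl7 and Rps27l, a target of p53, at 16.9 against 163.7 for Rps27. Rpl3l stood at 76.3 against 235.7 for Rpl3, and ran from 5.56 to 241.6 CPM. Its highest level was 43.5 times its lowest, the largest such ratio among members above 0 in all 72 libraries.

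Within groups the members differed widely in how closely libraries agreed. The median within-group SD of log2 CPM was 0.49 over 89 members tested and 0.45 over all 16688 genes. Rps6, the substrate of S6 kinase, had the smallest SD (0.20) and ran from 301.0 to 698.7 CPM over 72 libraries. Rpl7l1 (0.21), Rpl5, which carries the 5S rRNA (0.23), and Rpl22 (0.26) were next. Rps29 had an SD of 0.90 and ran from 49.6 to 924.8 CPM, and Rps27 had 0.83 and ran from 12.4 to 159.5 CPM. Rpl35a had 1.05 and Rpl3l 1.15. The groups follow the labels, and Rpl3l was at 152.9 to 219.8 CPM in the 8 atrial libraries of low Myl4. In the other 40 atrial libraries it was at 5.56 to 140.4 CPM. In the 18 naive libraries alone Rps29 ran from 50.7 to 504.3 CPM. Several members of wide spread moved together. Over the 72 libraries the Spearman correlation of Rps29 was 0.94 with Rps27, 0.93 with Rpl36al, 0.89 with Rps27l, 0.87 with Rpl39 and 0.76 with Rpl22l1, against 0.30 with Rpl3 and -0.27 with Rps2. These points share library, depth and group, and the values are descriptions.

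Part of this spread followed the library number. With the 24 groups as terms, 29 of 89 members were lower in libraries 49 to 72 than in 1 to 48 and 0 were higher (edgeR quasi-likelihood test, Benjamini-Hochberg adjusted p under 0.05), where 2.49% of all genes were lower and 2.74% higher. The median member fell by 0.28 on the log2 scale and the median gene by 1e-04. Rps27 fell by 0.68 (SE 0.19, adjusted p = 0.0262) and Rps7 by 0.56 (SE 0.13, adjusted p = 0.00587). Rps2 differed by 0.06 (SE 0.12), Rpl4 by -0.03 (SE 0.07) and Rpl27a by 0.52 (SE 0.19, adjusted p = 0.0917). The groups are those of the labels. By Myl4 or sex-linked genes, later libraries 50, 51, 53, 56, 57, 59, 62, 63, 65, 68, 69 and 71 went against their label. Among the earlier libraries 4, 11, 23, 24 and 46 did. The comparison is given only with these libraries. What the numbers stand for is not given in the sources used here, and this comparison was chosen after the data were seen.

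The main question of the design was how each treatment differed from naive within a chamber and sex. High dose against naive in female ventricle moved members in both directions. Of 88 members tested, 16 were higher and 28 lower, while 12.2% of all 14006 genes tested were higher and 11.4% lower. With all treatments fitted together, fewer members passed as higher and none as lower, as given below. The median member fell by 0.20 on the log2 scale and the median gene differed by 0.01. Rpl27a and Rps2 rose most, and Rps27l and Rps29 fell most. Of 54 large subunit and stalk members 9 rose and 18 fell, and of 34 small subunit members 7 rose and 10 fell.

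Rps2 was at 699.5, 750.1 and 874.6 CPM in the naive libraries 35, 36 and 54 and at 2424, 2734 and 2321 CPM in the high-dose libraries 43, 44 and 66. The groups lay far apart, and Rps2 was higher by 1.72 on the log2 scale (SE 0.14, adjusted p = 7.8e-05, edgeR quasi-likelihood test). Rpl27a, a large subunit protein, was at 96.7, 103 and 106.3 CPM in the naive and 385, 294.3 and 527 CPM in the high-dose libraries. It rose by 2.02 (SE 0.18, adjusted p = 0.000133), and the lowest high-dose library stood above all naive ones. Rpl4, a large subunit protein at the exit tunnel, rose by 0.83 from 321.1 to 350.8 CPM in naive to 520.7 to 664.1 CPM in high-dose libraries. Rps19, mutated in Diamond-Blackfan anaemia, rose by 0.75 and Rps3a1 by 0.73, and the ranges of the groups did not overlap for either (78.5 to 94.1 against 108.2 to 167.7 CPM and 324.1 to 342.1 against 488.8 to 559.4 CPM).

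Rps29 was at 379.9, 399.8 and 397.9 CPM in the naive and 137.8, 165.3 and 193.9 CPM in the high-dose libraries. It fell by 1.21 on the log2 scale (SE 0.13, adjusted p = 0.000333), and all 3 high-dose libraries were below all 3 naive ones. Both ranges lie within the 50.7 to 504.3 CPM that the 18 naive libraries of all chambers cover. Rps16 fell by 1.09 from 115.6, 136.7 and 101.2 to 43.5, 59.9 and 58.6 CPM, and Rps27 by 1.07 from 64.5, 58.5 and 61.5 to 22.6, 38.3 and 25 CPM. Rps27rt, whose counts equalled 98% to 100% of those of Rps27 in every library, fell by 1.06 and cannot be told apart from it. Rps27l fell by 2.04 from 12.9, 12.3 and 18.5 to 1.58, 4.65 and 4.3 CPM.

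The stalk did not move as a unit. Rplp2 rose by 0.72 (SE 0.13, adjusted p = 0.00272), from 122.3, 139.9 and 133.2 to 176.4, 228.6 and 231.3 CPM. Rplp0 differed by 0.30 (adjusted p = 0.0757), with 504 to 557.7 CPM in naive and 611.6 to 655.7 CPM in high-dose libraries. Rplp1 differed by -0.13 (adjusted p = 0.466), with 247.8 to 270.9 and 208.9 to 255.7 CPM. Among the paralog pairs, Rpl3l rose by 0.53 (SE 0.13, adjusted p = 0.0111) from 134.5, 156.5 and 133.4 to 190.6, 179.7 and 225.8 CPM while Rpl3 differed by -0.05 (adjusted p = 0.83). Rpl22l1 fell by 0.65 (adjusted p = 0.0122) while Rpl22 differed by 0.37 (adjusted p = 0.0558), and Rpl36al fell by 0.79 (adjusted p = 0.00462) while Rpl36a differed by 0.14 (adjusted p = 0.672). Rpl39 fell by 0.78 and Rpl10, which is needed for the subunits to join, by 0.73. Rps4x, Rpl7, Rpl7l1, Rpsa and Rps27a did not pass, with log2 differences of -0.24, -0.25, 0.12, 0.05 and -0.04.

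**Figure D2:**
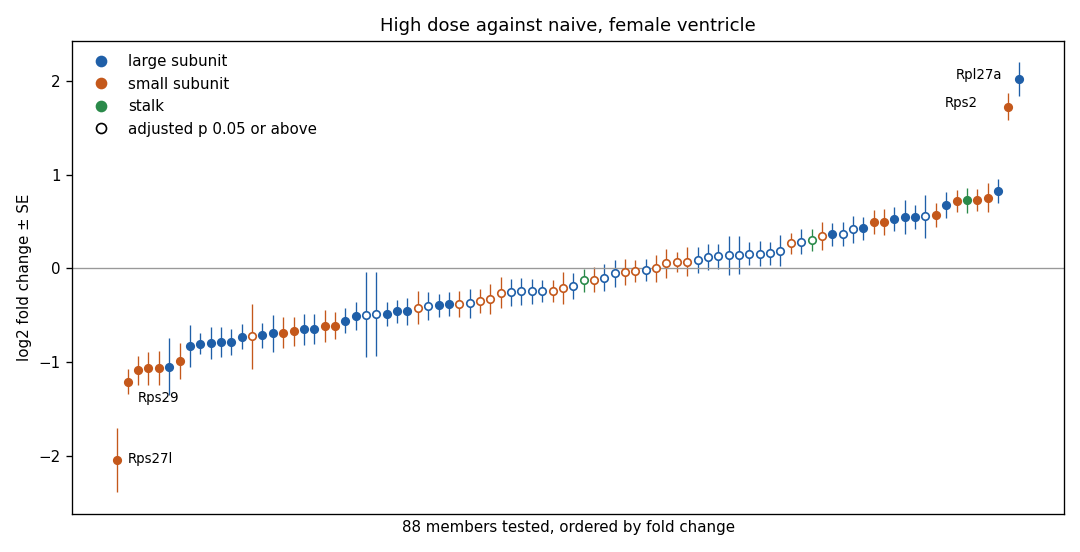
Log2 fold change with its standard error (y axis) of the 88 members tested, high dose against naive in female ventricle (3 libraries each), in ascending order (x axis), coloured by subunit, with filled points for adjusted p under 0.05. The 28 filled points below 0 reach -2.04 (Rps27l) and the 16 above 0 reach 2.02 (Rpl27a).

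Over the 84 members with a coding length, the fold change had a Spearman correlation of 0.43 with that length and 0.41 with the level of the member. The correlation with length was -0.31 at high dose in male ventricle, 0.11 at low dose in females, -0.16 at low dose in males and 0.35 in Ahr-/- females. Among the 21 shortest (138 to 357 bases) 2 rose and 10 fell, with a median of -0.49. Among the 21 longest (636 to 1257 bases) 7 rose and 4 fell, with a median of 0.16. The fold change also had a Spearman correlation of 0.81 with the difference of the same members between libraries 49 to 72 and 1 to 48, although both groups hold 1 library of the later numbers. That correlation was 0.66 at low dose in females, 0.70 in Ahr-/- females, 0.30 at low dose in males and -0.03 at high dose in males, where the correlation with level was -0.39. These are descriptions across members, which are not independent. With an offset for the trend of each library with coding length, 14 members were higher and 29 lower. From libraries 1 to 48 alone, 2 against 2, 13 were higher and 16 lower, and without library 35 it was 9 and 18. Scaling by library size only, which moves the median gene by -0.17, gave 8 higher and 30 lower, and a fit of all 4 treatments together gave 4 higher and 0 lower. Shares of all genes are not given for these settings, so their counts are not set against other genes.

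Other genes of the pathway were taken from lists, to be read against the 12.2% of all genes that were higher and the 11.4% that were lower. Of 16 other TOP mRNAs, mostly translation factors, 7 rose and 0 fell, led by Eef1d (1.35, SE 0.18), a subunit of the elongation factor 1 exchange complex, and with Eef1b2 (0.61), Eif3k (0.61) and Naca (0.59). Of 21 ribosome assembly genes 5 rose, among them the rRNA methyltransferase Fbl (1.18, SE 0.17), Bysl (0.68) and Rrp9 (0.65), and Tsr1 fell by 0.52. Of 11 genes that control translation in growth, Rheb fell by 0.61 and Rps6kb1, which encodes S6 kinase, by 0.54, and 0 rose. Rack1, a ribosomal protein outside the symbol rule, rose by 0.49, and the muscle elongation factor Eef1a2 differed by 0.20 without passing. The median log2 fold changes were 0.29 for the TOP list, 0.25 for assembly and -0.10 for growth control.

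Some marker sums moved with this comparison. The 3 genes listed for skeletal muscle (Acta1, Myh4 and Ckm) summed to 1291 to 1431 CPM in the naive and 1628 to 1960 CPM in the high-dose libraries. That sum was at 194.8 CPM or more in all 72 libraries and is not taken here as a measure of skeletal muscle cells. The sum of the 3 ventricular muscle markers was 9790 to 13780 and 13960 to 18820 CPM, and that of the 4 adipocyte markers 272 to 290.1 and 305.2 to 330.3 CPM. Myl2, a gene of the ventricular list, overlapped when taken alone. It was at 4369 to 6043 CPM in the naive and 4190 to 5201 CPM in the high-dose libraries. The other genes of that list are not given singly here. The 5 blood genes (2944 to 5839 and 3904 to 6398 CPM), the 4 atrial genes (57.9 to 576 and 32.3 to 87.1 CPM), the 5 leukocyte genes (26.8 to 40.5 and 33.9 to 42.1 CPM) and the 4 fibroblast genes (1080 to 1561 and 1015 to 1229 CPM) overlapped. The 5 T cell genes (1.85 to 2.91 and 2.503 to 7.33 CPM), the 4 B cell genes (0.929 to 3.94 and 0.139 to 2.12 CPM) and the 3 endothelial genes (537.7 to 747.2 and 687.7 to 761.7 CPM) overlapped as well. The lung list was at most 0.377 CPM. The part of these genes in the result was not tested.

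Low dose against naive in ventricle was tested with both sexes in 1 fit, and members passed as higher but not as lower. In that fit 23 of 88 members rose and 0 fell, against 6.20% of 14293 genes higher and 6.73% lower. Of the 88 members 80 had a positive fold change (75 with library size only), a count that is not set against other genes here. The largest were Rpl27a (1.70, SE 0.39, adjusted p = 0.0183), Rpl41 (1.17, SE 0.21, adjusted p = 0.0103), Rplp2 (1.06, SE 0.15, adjusted p = 0.00752), Rps2 (0.93, SE 0.18, adjusted p = 0.0111) and Rps26 (0.87, SE 0.26, adjusted p = 0.039), all by edgeR's quasi-likelihood test. Rplp2 was at 324, 211.7 and 328.9 CPM in female and 263.9, 261.1 and 245.3 CPM in male low-dose libraries, and all 6 were above the 6 naive ones, which ran from 94.5 to 141.3 CPM. Rps2 was at 1569, 1620 and 2224 CPM in females and 1540, 2198 and 1442 CPM in males, above the naive range of 699.5 to 1137 CPM. Without the ventricular libraries of high Myl4 (46, 53 and 71), 10 members rose and 0 fell (2.58% and 3.22% of all genes), among them Rplp2, Rpl41 and Rps2. Leaving out library 33, 34, 35, 36, 45, 46, 47 or 54 gave 9 to 13 members higher. Values without each of the other libraries, and the shares of all genes in these fits, are not given here. With library size only, which moves the median gene by -0.12, 9 were higher and 0 lower (2.85% and 9.83% of all genes). Among ribosomal proteins outside the rule, Fau rose by 0.95 and Rack1 by 0.48.

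Within each sex, 3 against 3, no member passed edgeR's test at low dose, while DESeq2 called 9 as higher in females (1.97% of all genes higher and 0.823% lower) and 6 as higher in males (0.457% and 0.590%). At an unadjusted p under 0.05, 22 were higher and 0 lower in females (9.90% and 7.86% of all genes) and 25 higher and 0 lower in males (5.83% and 8.08%). The lowest adjusted p of a member in females was 0.1401. In female low-dose ventricle 1 library decided much of the value: library 47 held the highest Rps29 of the 72 (924.8 CPM, against 261.2 and 187.7 CPM in libraries 48 and 72), and without it the median member log2 fold change went from 0.36 to -0.11. In males, libraries 1 to 48 alone, 2 against 2, gave 16 members higher and 0 lower (0.907% and 2.53% of all genes). High and low dose were also set against each other in female ventricle: 0 members passed, with 1 higher and 19 lower at an unadjusted p under 0.05 (1.78% and 2.70% of all genes), and by DESeq2 0 passed as well. The median member difference was -0.58, and -0.09 without library 47.

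**Figure D3:**
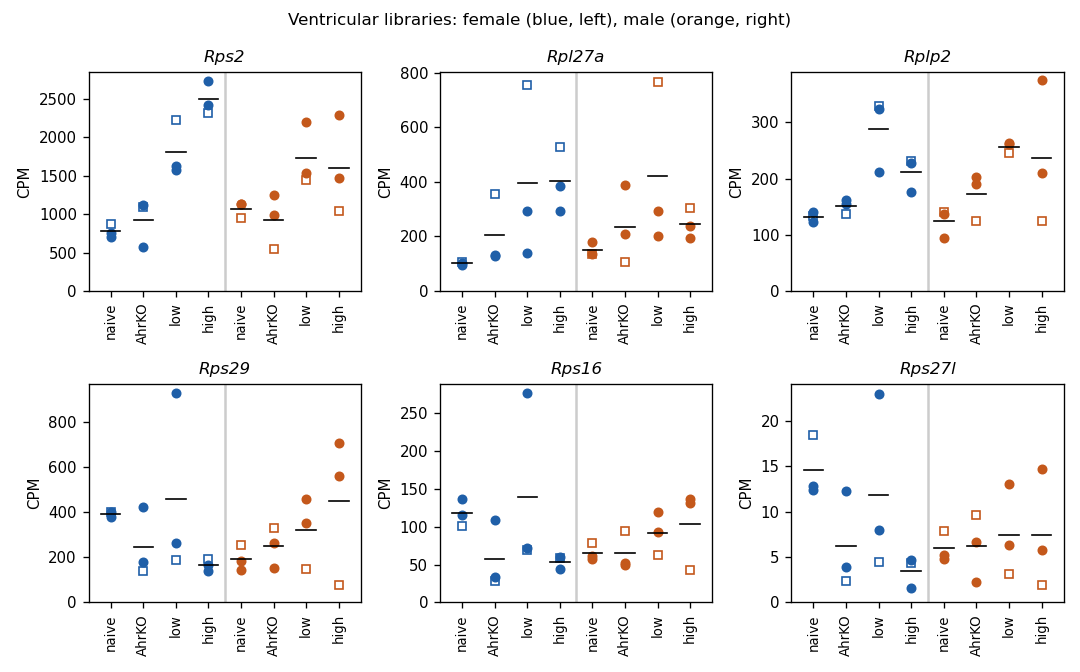
Levels (CPM, y axis from 0) of 6 members in the 24 ventricular libraries by treatment (x axis), female in blue on the left and male in orange on the right, with open squares for libraries 49 to 72 and bars for group means. Rps2 and Rplp2 were above all naive libraries at low dose in both sexes, whereas Rps29 fell at high dose in females (137.8 to 193.9 CPM) and was at 705.3, 557.3 and 79.2 CPM in high-dose males.

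High dose in male ventricle gave 0 members past the test with all 6 libraries, and 4 were higher and 0 lower at an unadjusted p under 0.05 (2.93% and 6.26% of all genes). DESeq2 called 0. In this comparison 1 library of each group, 53 (naive) and 65 (high), reads as the other sex and holds 1299 and 1366 CPM of Myl4. Library 65 stood apart in most members: Rps29 was at 705.3 and 557.3 CPM in libraries 41 and 42 and at 79.2 CPM in library 65, and Rplp1 at 450.1 and 382.1 against 141.3 CPM. Without libraries 53 and 65, leaving 2 against 2, 48 of 88 members rose and 0 fell, while 7.13% of all genes rose and 8.81% fell. Rps29 then rose by 1.93 (SE 0.26, adjusted p = 0.00704), Rps28 by 1.77 (SE 0.29, adjusted p = 0.0116), Rps26 by 1.72 (SE 0.25, adjusted p = 0.00887), Rpl41 by 1.62 (SE 0.31, adjusted p = 0.0153) and Rps10 by 1.54 (SE 0.24, adjusted p = 0.0112), against the naive libraries 33 and 34, in which Rps29 was at 142.4 and 181.6 CPM. Leaving out either library alone gave 0 calls. The blood markers were at 13360 and 7303 CPM in libraries 41 and 42 against 2531 and 3309 CPM in 33 and 34, and ventricular muscle at 15900 and 14690 against 38250 and 11090 CPM. Myl2, a gene of the ventricular list, did not follow that sum. It was at 8458 and 7921 CPM in libraries 41 and 42 against 3050 and 4117 CPM in 33 and 34. The part of these markers in the result was not tested.

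The difference between the sexes in the response to high dose was tested as an interaction. With all 12 libraries 0 members passed, and at an unadjusted p under 0.05 the female response was above the male for 5 members and below it for 18 (2.16% and 2.38% of all genes). DESeq2 called 0. Without libraries 53 and 65 it was above the male response for 5 members and below it for 50 of 88, against 3.46% and 4.57% of all genes. The members below included Rps29 (-3.18, SE 0.26, adjusted p = 4e-05), Rps27l (-3.08, SE 0.62, adjusted p = 0.0106), Rpl35a (-2.59, SE 0.45, adjusted p = 0.00616) and Rps16 (-2.28, SE 0.25, adjusted p = 0.000182). The 5 above were Rpl27a (1.55), Rpl5 (1.15), Rpl4 (1.01), Rps2 (0.98) and Rps3a1 (0.92). Without library 65 alone, 1 member was above and 40 below (0.847% and 2.38% of all genes). The naive libraries enter this difference, and in them Rps29 was at 379.9 to 399.8 CPM in naive females and 142.4 to 254 CPM in those labelled naive male. The 254 CPM is that of library 53, whose sex-linked genes go against the label and which some of these fits left out. With both sexes in 1 fit, high dose gave 5 members higher and 0 lower (6.17% and 6.92% of all genes), namely Rpl27a (1.35, SE 0.26), Rps2 (1.14, SE 0.25), Rpl41 (0.91, SE 0.26), Rplp2 (0.81, SE 0.22) and Rps18 (0.59, SE 0.15). Without libraries 53 and 65 this became 19 and 0 (11.1% and 13.8%). Leaving out single libraries gave from 1 higher (without 35) to 20 higher (without 65), for which shares of all genes are not given here.

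No member passed in the other 7 fits of both sexes, nor in any of the 17 comparisons of 1 sex other than high dose in female ventricle, where the lowest adjusted p of a member was 0.1401 (edgeR quasi-likelihood test). Shares of all genes are not given here for the 7 fits, so their result is not set against other genes. In 16 of the 17 comparisons no gene at all passed, and 3 did in Ahr-/- female ventricle. By DESeq2 21 members passed over the 17, all higher. Beside the 9 and 6 at low dose in ventricle there were 5 at low dose in female left atrium (1.54% of all genes higher and 1.60% lower) and 1, Rpl27a, at high dose in male left atrium (0.210% and 0.440%). The lowest and highest median member log2 fold changes in the 17 were -0.39, in Ahr-/- female right atrium (-0.15 without library 4, of low Myl4, and -0.47 without libraries 50 and 56), and 0.64, in Ahr-/- female left atrium. The comparisons of each sex and chamber share their 3 naive libraries, so the 3 treatments of a panel are not independent of each other.

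**Figure D4:**
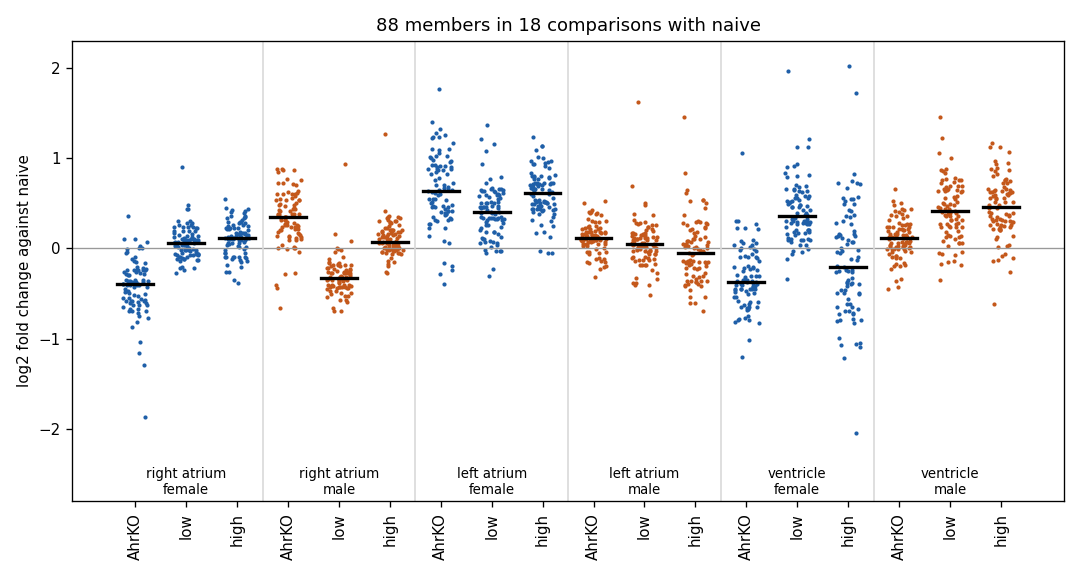
Log2 fold change against naive (y axis) of 88 members in the 18 comparisons by chamber, sex and treatment (x axis), 1 point per member and bars for the median. The medians run from -0.39 to 0.64, and high dose in female ventricle spans from -2.04 to 2.02 around a median of -0.20.

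In Ahr-/- female ventricle 1 member was higher and 16 lower at an unadjusted p under 0.05 (6.12% and 3.33% of all genes), with a median of -0.37. The libraries did not agree: Rps29 was at 422.2 CPM in library 39 and at 179.6 and 139.5 CPM in libraries 40 and 60, and Rps16 at 109.4 against 33.8 and 28.7 CPM. Without library 39, 0 members were higher and 41 lower (3.69% and 3.42% of all genes). In Ahr-/- male ventricle no member reached an unadjusted p under 0.05, and the median was 0.12 (0.15 without libraries 53 and 59). Ahr-/- female left atrium had 20 members higher at an unadjusted p under 0.05 (7.12% of all genes). From libraries 1 to 48 alone, 22 passed as higher and 0 as lower (9.02% and 9.39% of all genes), but both Ahr-/- libraries then left, 23 and 24, hold little Myl4. Without them the Ahr-/- arm is library 58 alone, assumed to vary like the naive libraries, and the median member was at 0.02. Low dose in female left atrium had 22 members higher at an unadjusted p under 0.05 (8.69% of all genes) and 0 lower. Rplp2 was at 239.7, 218.8 and 309.2 CPM in its libraries and at 84.6, 136.8 and 125.7 CPM in the naive ones, and the groups did not overlap, but the log2 difference of 1.15 (SE 0.24) had an adjusted p of 0.1528 (edgeR quasi-likelihood test). Rpl41 was at 303.2, 263.4 and 408.4 CPM against 84.3, 170.3 and 169.3 CPM, with a difference of 1.21 (SE 0.31, adjusted p = 0.1567). Rps2 was at 1691, 1954 and 1699 CPM against 988.2, 1325 and 1074 CPM, again without overlap. Rpl27a overlapped, at 225.6 to 792.8 CPM against 130.4 to 248.9 CPM.

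The 3 naive female left atrium libraries spread widely in Rps29, at 50.7, 149.2 and 222.8 CPM. The high-dose libraries there were at 290.9, 566.7 and 128.6 CPM, and the median member difference was 0.62. Rpsa differed by 0.84 (SE 0.32, adjusted p = 0.592) and Rplp2 by 0.66 (SE 0.24, adjusted p = 0.592) in that comparison. In male left atrium at high dose Rpl27a was at 227.7 to 475.9 CPM against 107.5 to 168.1 CPM in naive libraries, with a log2 difference of 1.45 (SE 0.33, adjusted p = 0.369), and of 1.49 without libraries 51 and 63. In male right atrium Rpl3l was the member of smallest unadjusted p in each treatment, at 24.1 to 52 CPM in naive and 71.6 to 76.5 CPM in low-dose libraries (0.93, SE 0.26, adjusted p = 0.942). None of these passed edgeR's test.

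Over all 72 libraries, ventricle against atria called Rpl3l as higher and Rpl3 as lower and no other of 89 members, while 15.0% of 16688 genes were higher and 17.7% lower. Rpl3l was higher by 0.96 (SE 0.25, adjusted p = 0.0025) and Rpl3 lower by 0.52 on the log2 scale (adjusted p = 0.000522). With library size only, which moves the median gene by -0.21, 1 was higher and 12 lower (5.08% and 35.3% of all genes), and in the naive libraries alone 0 genes passed. Between left and right atrium 0 members passed, and 0 had an unadjusted p under 0.05. The share of all genes is not given here, so this count is not set against other genes. That contrast held the 8 atrial libraries of low Myl4 and the 4 of female right atrium whose sex-linked genes go against the label. For ventricle against atria without the 13 libraries whose Myl4 goes against the label, 15 members were higher and 1 lower (23.1% and 25.1% of all genes). Rpl3l was then higher by 1.54 (SE 0.26, adjusted p = 6e-06) and Rpl3 lower by 0.63 (SE 0.13, adjusted p = 6.2e-05). The other 14 were higher by 0.19 to 0.41, with Rps2 (0.41), Rpl24 (0.37) and Rplp0 (0.29) among them.

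The levels of the pair were also set against Myl4 and Myl2 in each library. In the 40 atrial libraries of usual Myl4, Rpl3l ran from 5.56 to 140.4 CPM with a median of 66.1, and Rpl3 from 177.6 to 527.7 with a median of 340.9. In the 19 ventricular libraries of usual Myl4, Rpl3l ran from 72.8 to 241.6 with a median of 168.7, and Rpl3 from 149.5 to 349 with a median of 214.1. The 8 libraries labelled atrium with low Myl4 had Rpl3l at 152.9 to 219.8 CPM, within the ventricular range and above every other atrial library. The 5 libraries labelled ventricle with high Myl4 had 31.9 to 196.2 CPM, with a median of 67.2. Per 1000 coding bases, Rpl3l stood at a median of 16.3% of Rpl3 in the 40 atrial and 77.9% in the 19 ventricular libraries, and reached 168% in a library of low Myl4 labelled left atrium. Over the 72 libraries the Spearman correlation of Rpl3l was 0.93 with the ventricular light chain Myl2, -0.81 with Myl4 and -0.64 with Rpl3, as a description of libraries that share chambers and groups. Among list genes, Eef1a2 was higher in ventricle (0.53, adjusted p = 0.000719) and Eef1a1 lower by 0.89 (adjusted p = 1.5e-05).

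**Figure D5:**
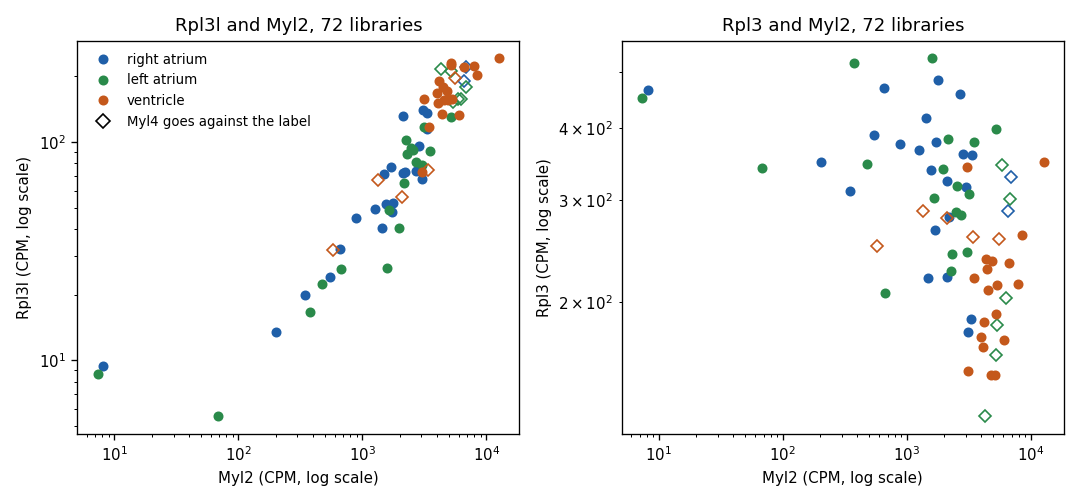
Rpl3l (left) and Rpl3 (right) against the ventricular light chain Myl2 in the 72 libraries, all in CPM on log axes, coloured by labelled chamber, with open diamonds for the 13 libraries whose Myl4 goes against the label. Rpl3l rises with Myl2 (Spearman 0.93), and the diamonds labelled left and right atrium lie with the ventricular points.

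Several members cannot be separated by these counts. Over the 72 libraries Rpl34-ps1, annotated as protein-coding, held 95.8% to 99.8% of the count of Rpl34, Rpl37rt 85.8% to 100.7% of Rpl37 and Rpl31-ps12 44.9% to 78.8% of Rpl31. Of the pseudogenes left out, Rpl14-ps1 held 94.2% to 102.6% of the count of Rpl14 and Rps15a-ps6 61.6% to 114.1% of that of Rps15a. Rps23rg1 held 12.1% to 54.9% of Rps23, and Rpl32l 6.34% to 28.1% of Rpl32. Without Rpl34-ps1, Rps27rt, Rpl37rt and Rpl31-ps12, the counts in female ventricle at high dose were 16 higher and 27 lower.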

How the data were processed

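The deposited table holds raw counts of reads per gene, which the authors made from poly(A) RNA sequenced for 50 cycles (CASAVA 1.8) by TopHat alignment to mm10 and counting over coding regions. Strand use and multi-mapping are not given in the sources used here. Genes carry Entrez identifiers, of which 24155 of 24237 matched a RefSeq symbol (GRCm38.p6). From these counts, filterByExpr (minimum count 10, minimum total 15), TMM and the robust quasi-likelihood test of edgeR 4.0.16 were applied per comparison across all genes, with Benjamini-Hochberg adjustment and a threshold of 0.05, in R 4.3.3. The 18 comparisons with naive used 6 libraries each, those of both sexes a sex term, and the chamber contrasts cell means of 24 groups. CPM are scaled by TMM. Coding length and GC content came from GENCODE M21 in place of the RefSeq protein table planned. The code was tested on simulated data. Alternatives were RLE factors, library size only, no filter, DESeq2, a library number term, other sample sets, offsets for length and GC, and leaving out libraries.

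Named members were Rps2, the stalk, Rpsa, Rps27a, the paralog pairs, the highest and lowest by level, and per comparison the 5 called members of largest change in each direction or, where none was called, up to 2 of smallest p. Members outside this rule that are named for their level, spread or value without libraries 53 and 65 were chosen after their values were seen. Some results that the rule would name are not reported here. The members, the gene lists (TOP mRNAs, assembly, growth control, other ribosomal proteins) and the marker lists (atrial, ventricular and skeletal muscle, blood, leukocyte, T cell, B cell, adipocyte, fibroblast, endothelium, lung) were chosen with earlier results of these data known. Total counts per library limit low members, and standard errors here rest on the spread between libraries.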

Additional observations from a re-analysis of the deposited data

Results flagged for a closer look

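The response of the members to high dose differed between the sexes in ventricle once libraries 53 and 65 were left out, which the test of the difference itself (edgeR quasi-likelihood interaction term) called for 55 of 88 members, 50 with the female response below the male and 5 above (4.57% and 3.46% of all genes). With all 12 libraries it called 0. Only 2 naive and 2 high-dose male libraries remained, and the blood markers stood at 7303 to 13360 CPM in the latter and 2531 to 3309 CPM in the former; their part was not tested.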

How the results depend on the processing

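No paired analysis was possible because the library numbers are not shared between groups, so no block of single replicates could be fitted. A term for libraries 1 to 48 against 49 to 72, which each group holds, gave 42 members at high dose in female ventricle (44 without it), 30 in the fits of both sexes (28 without it) and no other change of count. For high dose in female ventricle the 44 members called became 4 with all 4 treatments in 1 fit, 29 with libraries 1 to 48 only and 1 at an adjusted p under 0.0001, and 27 to 52 on leaving out 1 library. Other settings gave 38 to 50. For the other 17 comparisons with naive the 0 became 2 with no filter, 21 with DESeq2, 1 with 4 treatments in 1 fit, 86 with libraries 1 to 48 only, 49 without ventricular libraries of high Myl4 and 0 to 41 on leaving out 1 library (41 without 39, 7 without 48, 2 without 58). For the 9 fits of both sexes the 28 became 12 with library size only, 0 at an adjusted p under 0.0001 and 11 to 43 on leaving out 1 library. For ventricle against atria the 2 became 13 with library size only (1 higher, 12 lower), 7 without atrial libraries of low Myl4, 16 without all libraries whose Myl4 goes against the label, 0 in naive libraries only and 0 at an adjusted p under 0.0001. The sex difference at high dose went from 0 to 41 with libraries 1 to 48 only, 55 without those of high Myl4 and 0 to 41 on leaving out 1 library. Members that did not pass changed sign at high dose in female ventricle: Rpl7l1 (-0.062) and Rpl36a (-0.011) with library size only; Rpsa with library size only (-0.15), libraries 1 to 48 only (-0.22) and offsets for length (-0.013) and GC (-0.22); and Rps27a (0.018) with the GC offset. On leaving out 1 library Rpl3 ran from -0.180 to 0.0088, Rpl36a from -0.088 to 0.352, Rpsa from -0.10 to 0.16 and Rps27a from -0.131 to 0.061. The causes were not tested. Where no share of all genes is given above for a setting, its count of members is not set against other genes.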
